A study of Mus musculus with 2 samples.

Results

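The miR-29 family was followed through its 3 mature 3p miRNAs, in smooth muscle cells grown from the pulmonary arteries of mice with and without NOX1. The members were the rows of the deposited table that carry the miRBase mature accessions MIMAT0000535 (miR-29a-3p), MIMAT0000127 (miR-29b-3p) and MIMAT0000536 (miR-29c-3p). All 3 were found among 739 features, each in a row with 1 accession, and each had a value on both arrays. The rows were picked by accession and not by intensity, though the family was chosen with earlier results of these data known.

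The NOX1-deficient group was 1 array of cells from 3 male mice lacking NOX1, an NADPH oxidase enzyme that makes superoxide. The wild-type group was 1 array of cells from 3 male mice. Both groups were on the C57BL/6 background, and the cells, at passage 3, had spent 24 hours in DMEM/F-12 medium that held 10% fetal bovine serum. Not given in the sources used here are the age of the mice, the NOX1 allele and whether material from the 3 mice was pooled. With 1 array per genotype there is no replicate check, no test and no p-value for any difference.

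MicroRNAs are short RNAs that guide Argonaute proteins to messenger RNAs, mainly through their seed, the bases near the 5′ end, and lower the output of those messages. The miR-29 family is best known as a brake on extracellular matrix: its established targets include the fibrillar collagens Col1a1 and Col3a1, elastin (Eln) and fibrillin (Fbn1). It also targets the DNA methyltransferases Dnmt3a and Dnmt3b, and TGF-β signalling is known to lower miR-29 in fibroblasts. In the walls of arteries, smooth muscle cells make much of the collagen and elastin. None of these messages or proteins was measured here.

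The mature sequences are shown because all 3 members share a seed and differ in few other bases, which bears on what an array probe can separate. Capitals mark the seed, bases 2 to 8, and the sequences are RefSeq's, GRCm38.p6, found there for 3 of 3 members by name.
miR-29a-3p: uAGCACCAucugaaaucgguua
miR-29b-3p: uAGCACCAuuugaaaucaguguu
miR-29c-3p: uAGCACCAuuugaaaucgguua
The seed AGCACCA was carried by 3 of 1679 distinct mature mouse entries in that table, and these were the 3 members. The message that pairs with it reads UGGUGCU. The first 9 bases were identical in all 3, so a target site defined by the seed is shared by the whole family. Position by position from the 5′ end, miR-29a-3p and miR-29c-3p were identical at 21 of 22 positions and differed by C10U, where the base of the first-named member stands first. From miR-29a-3p to miR-29b-3p the changes were C10U, G18A, U21G and A22U. From miR-29b-3p to miR-29c-3p they were A18G, G21U and U22A, and miR-29b-3p is 1 base longer than the other members, 23 against 22. The probe sequences were not used here, so how far each probe separates members that differ at 1 position was not tested.

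The family is made from 4 hairpins in a pair of clusters, and miR-29b-3p comes from both of them. The hairpins are given because they fix which locus each miRNA can come from. Capitals mark the 3p arm.
Mir29b-1: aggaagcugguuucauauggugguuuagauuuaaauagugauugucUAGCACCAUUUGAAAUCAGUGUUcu
Mir29a: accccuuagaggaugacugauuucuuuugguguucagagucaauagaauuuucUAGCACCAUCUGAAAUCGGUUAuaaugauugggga
Mir29b-2: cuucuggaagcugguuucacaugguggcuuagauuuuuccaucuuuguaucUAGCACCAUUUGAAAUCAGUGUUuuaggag
Mir29c: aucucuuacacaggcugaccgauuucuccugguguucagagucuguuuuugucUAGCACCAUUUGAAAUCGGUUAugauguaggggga
In GRCm38.p6, Mir29b-1 lies at chr6:31063023-31063093 and Mir29a at chr6:31062660-31062747, both on the minus strand and 275 bases apart. Mir29b-2 lies at chr1:195037040-195037120 and Mir29c at chr1:195037547-195037634, both on the plus strand and 426 bases apart. In RefSeq's gene table the chromosome 1 hairpins fall within the span of the long noncoding RNA gene A330023F24Rik. The chromosome 6 hairpins overlap no other gene of that table, and the nearest entries on either side, Gm40359 and Lncpint, are long noncoding RNA genes. The table gives gene spans only, so exon or intron was not determined. miR-29b-3p can come from both loci, while miR-29a-3p can come only from chromosome 6 and miR-29c-3p only from chromosome 1. An intensity reports on these loci only as far as its probe separates the members.

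**Figure D1:**
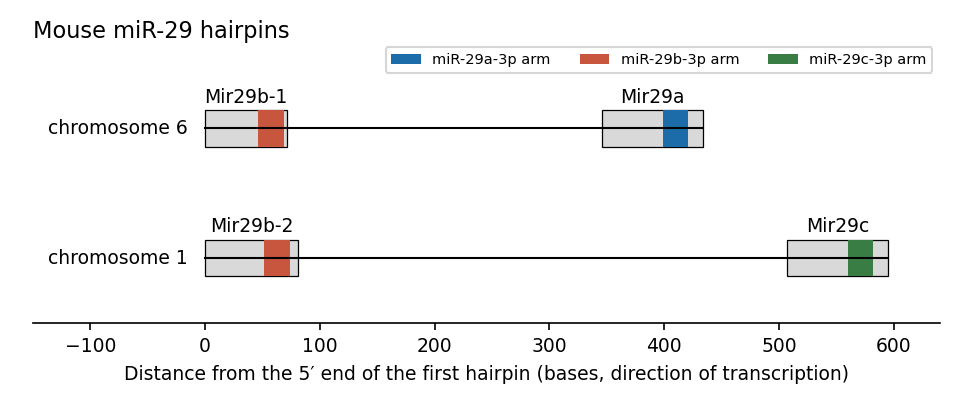
The 4 mouse miR-29 hairpins, drawn as grey boxes along the direction of transcription, in bases from the 5′ end of the first hairpin of each cluster. The coloured block in each box is the 3p arm, and the miR-29b-3p arm appears in both clusters.

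On the arrays, miR-29a-3p stood close to equal in the 2 genotypes, while miR-29b-3p and miR-29c-3p were somewhat lower in NOX1-deficient cells. All values are intensities in arbitrary units, as deposited, and were read as being on a linear scale. In bulk RNA of this kind, fewer cells that make a miRNA and less of it per cell cannot be told apart. Intensities of different members are not compared as amounts, because probes differ in affinity and labelling.

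miR-29a-3p, the member made from chromosome 6 alone, read 463.95 units in NOX1-deficient cells and 452.07 units in wild-type cells. The gap was 11.88 units, 2.63% of the wild-type value, and the log2 difference was 0.037. All log2 differences are of NOX1-deficient over wild-type cells. The feature ranked 27 by brightness on both arrays among the 525 features listed in NOX1-deficient cells and the 546 in wild-type cells. It was thus among the brighter features and kept its place.

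miR-29b-3p, the member made from both loci, read 93.39 units in NOX1-deficient cells and 112.43 units in wild-type cells. It was lower by 19.04 units, a ratio of 0.831 and a log2 difference of -0.27. Its brightness rank was 66 in NOX1-deficient cells and 55 in wild-type cells. This was the widest gap of the 3 members on the log2 scale.

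miR-29c-3p, the member made from chromosome 1 alone, read 7.40 units in NOX1-deficient cells and 8.60 units in wild-type cells. Its ratio was 0.860, with a log2 difference of -0.22, about that of miR-29b-3p. In units, however, this was a gap of 1.20, on a feature whose readings lay much nearer to the lowest listed values, 0.93 in NOX1-deficient and 0.96 in wild-type cells, than those of the other members. It ranked 180 in NOX1-deficient cells and 167 in wild-type cells. Whether signal from the brighter miR-29a-3p, which differs at 1 position, adds to this reading was not tested.

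**Figure D2:**
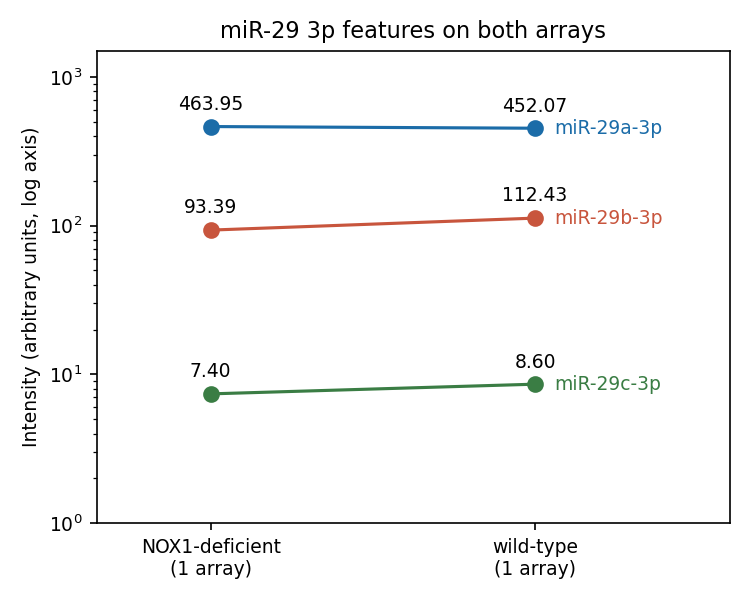
Intensity of the 3 miR-29 3p features (arbitrary units, log axis) on the NOX1-deficient and the wild-type array, 1 point per array with no error bar, since each genotype has 1 array. The line of miR-29a-3p is nearly level, and those of miR-29b-3p (93.39 against 112.43) and miR-29c-3p (7.40 against 8.60) are lower in NOX1-deficient cells.

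No member reached a 2-fold difference: 0 of 3 did, where 1.91% of the 472 features measured on both arrays did so, higher or lower. All 3 members belong to the brighter 236 of these features, of which 0% reached 2-fold. At 1.5-fold it was again 0 of 3 members, against 11.2% of the 472 features and 2.97% of the brighter 236. Counting any size, 2 of 3 members were lower in NOX1-deficient cells, as were 49.6% of the 472 features and 48.3% of the brighter 236. The median log2 difference of the 3 members was -0.22, and that of the 472 features was 0.004. A count of 3 is too small to place the family apart from other features, and no test of that was made.

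The differences were then set beside those of other features of like brightness, because dim features scatter more. In the brightest quartile of the 472 features, which holds miR-29a-3p and miR-29b-3p, the log2 differences had an SD across features of 0.18 (n = 118). There 100 of 118 features, miR-29a-3p included, differed by at least as much as miR-29a-3p in either direction. For miR-29b-3p the number was 18 of 118, itself included, and 8 of 118 were as low or lower, so its difference lay in the lower tail of the quartile but was shared by others. In the next quartile, which holds miR-29c-3p, the SD was 0.29, and 54 of 118 features differed by at least as much. The difference of miR-29c-3p was therefore ordinary for its brightness. These SDs are across features of the same 2 arrays and are not replicate error.

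A narrower window of brightness, 1.5-fold to either side of each member, placed the members in a like way. Of the other features whose mean intensity lay within 1.5-fold of that of miR-29b-3p, 1 of 29 was as low or lower. In either direction, 3 of 29 differed by at least as much. These 29 ran from -0.27 to 0.56 with a median of 0.03 on the log2 scale. Around miR-29a-3p, the 15 other features ran from -0.28 to 0.39, with 9 as low or lower and 12 differing by at least as much. Around miR-29c-3p, the 54 others ran from -0.60 to 0.78, with 13 as low or lower and 25 differing by at least as much. Of the 3 members, miR-29b-3p thus lay nearest the edge of its neighbours.

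**Figure D3:**
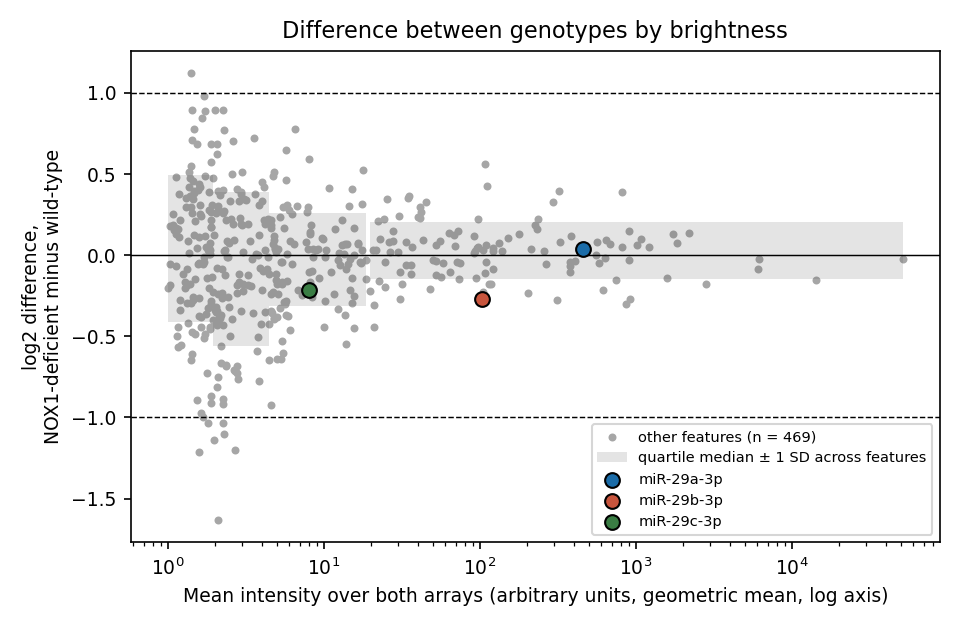
The log2 difference of NOX1-deficient over wild-type cells against the mean intensity over both arrays (arbitrary units, log axis) for the 472 features measured on both. Grey points are other features, shaded bands are the median ± 1 SD across the features of each brightness quartile, and dashed lines mark 2-fold. Only miR-29b-3p of the 3 members lies outside its band, below it, and none comes near 2-fold.

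Within the family, the log2 difference of miR-29a-3p exceeded that of miR-29b-3p by 0.31 and that of miR-29c-3p by 0.25, while miR-29b-3p and miR-29c-3p were apart by -0.051 (miR-29b-3p minus miR-29c-3p). A gap between members is free of any single scaling factor between the arrays, since such a factor moves all members by the same amount. The scatter of features does enter it. Single differences had an SD of 0.18 in the quartile of miR-29a-3p and miR-29b-3p and 0.29 in that of miR-29c-3p. The spread of gaps between other features was not computed, so whether these gaps are unusual was not tested. The summed intensity of the 3 features was 564.74 units in NOX1-deficient cells and 573.1 units in wild-type cells, a log2 ratio of -0.021 that turned to 0.075 under median centring. This sum follows the brightest probe: miR-29a-3p held 82.2% of it in NOX1-deficient cells and 78.9% in wild-type cells. Without that feature the sums were 100.79 and 121.03 units in NOX1-deficient and wild-type cells, a log2 ratio of -0.26. These shares are of probe signal and do not give the make-up of the family in molecules.

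The sign of the difference was the same for miR-29b-3p and miR-29c-3p under all 6 other scalings tried. Not all of these could have changed it. Adding 50 units before the log cannot change a sign. The log2 shift was -0.097 for median centring, -0.033 for total intensity scaling and 0.028 for centring on the brightest quartile. Each was too small to change either sign. For miR-29b-3p the values ran from -0.30 to -0.17 and for miR-29c-3p from -0.25 to -0.030. The value of -0.030 came from adding 50 units before the log, which shrinks the ratio of a dim feature. For miR-29a-3p the values ran from 0 under quantile normalization, where its rank was the same on both arrays, up to 0.13 under median centring. Under each of these scalings miR-29a-3p therefore lay above the other members. Median centring, total intensity scaling and brightest quartile centring move all members by the same amount, so could not change this order.

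**Figure D4:**
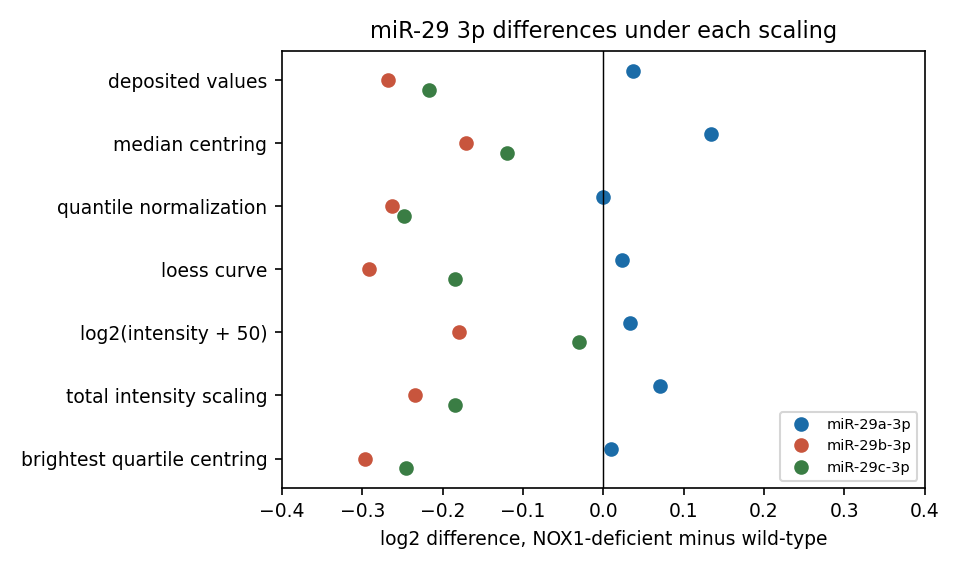
The log2 difference of each miR-29 3p feature, NOX1-deficient over wild-type, from the deposited values (top) and under 6 other scalings of the same 2 arrays. miR-29b-3p and miR-29c-3p lie left of 0 in each, and miR-29a-3p lies at 0 or to its right.

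By closeness of the intensities on both arrays, the 3 features most like miR-29a-3p read 403.16, 400.61 and 374.91 units in NOX1-deficient cells, against 412.57, 369.33 and 386.3 units in wild-type cells. The 3 most like miR-29b-3p read 96.52, 98.62 and 103.64 units in NOX1-deficient cells, against 112.72, 118.78 and 111.97 units in wild-type cells. The 3 most like miR-29c-3p read 7.73, 7.70 and 7.68 units in NOX1-deficient cells, against 8.67, 8.26 and 9.17 units in wild-type cells. None of the 3 nearest features of any member was another member. The members' intensities lie far apart, so this was set by brightness and says nothing about genotype. The measure, distance in the plane of the 2 log2 intensities, fixes that neighbours have like differences, and over 2 arrays it says nothing more.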

How the data were processed

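The deposited table gives 1 intensity per feature and array, on a linear scale. RNA isolated by the miRNeasy mini kit carried the dye Hy5, attached with a miRCURY LNA labelling kit, per the labels' protocols. The sources used here do not say how the arrays were scanned, corrected for background or normalized, or what a null stands for. Of 739 features, 472 had a value on both arrays and 214 NOX1-deficient and 193 wild-type values were null. No depth exists for arrays, and their number limits the precision.

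Log2 differences were taken from the deposited values with no pseudocount. Alternatives were a loess curve (span 0.4), quantile normalization, median centring and log2(intensity + 50). Total intensity scaling, centring on the brightest quartile and the 1.5-fold brightness window were added after seeing the data. The calculation was tested on simulated data with planted changes larger than 2-fold, so that check says nothing on differences as small as the members'.

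Members and lists were chosen with earlier results of these data known. The text names the 3 members and, for each, its 3 nearest features, given by value alone. The table carries accessions, and the sources used here name 3 of them. The fibrosis list, the cell type markers and the 5p arms, written by name, were therefore not analysed here. Neither the cell type nor the loss of NOX1 was checked. Sequences are RefSeq's (GRCm38.p6). The software was statsmodels 0.14.6, scipy 1.17.1, pandas 2.3.3, numpy 2.4.6 and Python 3.11.15, with matplotlib 3.10.9 for figures.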

Additional observations from a re-analysis of the deposited data

How the results depend on the processing

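The 3 members' log2 differences and their median each moved by less than 1 SD across features under all 6 alternatives. The SD used was 0.18 for miR-29a-3p and miR-29b-3p, 0.29 for miR-29c-3p and 0.37 for the median. For miR-29c-3p and the median this SD exceeds the difference: adding 50 units took both from -0.22 to -0.030. Median centring, total intensity scaling and brightest quartile centring shift every feature by a constant smaller than these SDs, so could not exceed them. Adding 50 units only shrinks a difference. It could not exceed the SD for miR-29a-3p, miR-29c-3p or the median, whose differences are smaller than their SDs. Under median centring, quantile normalization or the loess curve, 0 of 3 members reached 2-fold. The shift of median centring was too small to bring any member there. Shares of all features were computed from the deposited values only, where 1.91% of the 472 and 0% of the brighter 236 reached 2-fold. This count therefore has no share under the same scalings to stand beside. The log2 ratio of the summed intensity, -0.021, became 0.075 under median centring, which reversed it, and -0.26 without miR-29a-3p, the brightest member. Median centring added 0.10 to every difference and took the median over the 472 features to 0.10. The fibrosis list alternatives were not run, since its features are unnamed. No paired analysis was possible because there was a single array of either genotype, and no replicate could be left out. Signal over background is unknown, which limits miR-29c-3p most, as the dimmest of the 3 features.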
